A study of Bos taurus with 6 samples.

Results

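The genes described here are 10 that serve as surface and progenitor markers of fibroblasts and mesenchymal stromal cells: CD34, THY1, NT5E, ENG, CD44, MCAM, VCAM1, NES, VIM and S100A4. They were chosen by gene name with the FPKM and counts of both groups already known, so the FT and WT values of these genes are given as a description without a test. All 10 were found among the 17663 genes of the deposited table, and all 10 were among the 13482 genes with enough counts to enter the fit. By textbook knowledge 7 of them encode proteins of the cell surface, whereas NES, VIM and S100A4 encode proteins inside the cell.

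The cells were bovine fetal fibroblasts (bEFs) grown from cattle fetuses of 50 to 60 days. The FT cells came from 3 fetuses carrying an exogenous fat-1 gene of Caenorhabditis elegans, which encodes a desaturase that turns n-6 into n-3 polyunsaturated fatty acids, and the WT cells from 3 wild-type Luxi fetuses. In both groups the tissue left after removal of head, limbs, bones and internal organs was digested with collagenase and cultured in DMEM F12 with serum. Each fetus gave 1 poly(A) paired-end library, named FT_1 to FT_3 and WT_1 to WT_3. The promoter of the transgene, the breed of the FT fetuses and whether they came from 1 founder or cell clone are not given in the sources used here. Levels are given in FPKM, fragments scaled to the length of the transcript and the size of the library, which allows genes to be compared with each other. Total counts were 63366834 (FT_1), 48167642 (FT_2), 54204446 (FT_3), 69777641 (WT_1), 51310741 (WT_2) and 54271927 (WT_3).

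Cultured fibroblasts and mesenchymal stromal cells have no single defining antigen, and they are recognised by a panel. THY1 (CD90), NT5E (CD73) and ENG (CD105) are the usual positive antigens of stromal cells from human tissue, CD34 and the leukocyte antigen PTPRC (CD45) the usual negative ones, and CD44 is a broad positive marker. In tissue, CD34 also marks blood progenitors, endothelium and a population of interstitial fibroblasts, and is often lost in culture. MCAM (CD146) is carried by pericytes and endothelium, VCAM1 by activated endothelium and by stromal cells that hold leukocytes, and nestin (NES) by neural, muscle and perivascular progenitors. Vimentin (VIM) is the intermediate filament of mesenchymal cells, and S100A4, a calcium-binding protein, is also called fibroblast-specific protein although other cells make it.

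The library FT_1 stood apart from the other FT libraries. With 0.1 added to each value, the FPKM of FT_1 and FT_2 was over 2-fold apart in 19.3% of the genes in the fit, and that of FT_1 and FT_3 in 19.8%. The same share was 2.17% between FT_2 and FT_3 and 1.91% to 2.88% between WT libraries. FT_1 also held transcripts of epithelial genes that were low or at 0 in the other libraries. KRT5, a keratin of basal epithelium, had FPKM values of 172 (FT_1), 2.57 (FT_2), 1.63 (FT_3) and 0 in every WT library. Fitted values of the 10 genes, list counts and changes of companion genes are therefore given without FT_1 as well. The FT side of those values rests on FT_2 and FT_3 alone. Their standard errors and p-values leave out the spread that FT_1 brings, and FT_1 was singled out after its values were seen. The part of FT_1 and of these epithelial transcripts in the results was not tested.

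Fibroblast markers were present in every library. The fibroblast identity list of 12 genes had a summed FPKM of 5684 (FT_1), 14630 (FT_2), 14060 (FT_3), 10010 (WT_1), 9166 (WT_2) and 10140 (WT_3). Decorin (DCN) was its most abundant gene in FT_1, FT_2, FT_3 and WT_1, as was COL1A1 in WT_2 and COL1A2 in WT_3. COL1A1, the gene for the alpha 1 chain of type I collagen, had FPKM values of 914 (FT_1), 2611 (FT_2) and 2689 (FT_3) against 2288 (WT_1), 2212 (WT_2) and 2331 (WT_3). No fibroblast gene of the list was under an FPKM of 1 everywhere, and the sum was lowest in FT_1. PDGFRA, the receptor that marks most fibroblasts, had FPKM values of 175 ± 39.3 (mean ± SD, n = 3) for the FT group against 93.4 ± 6.36 for the WT group.

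In the panel as a whole, every FT library was below every WT library for 4 genes (CD34, ENG, VIM and S100A4), which was the case for 36.9% of all genes in the fit. Every FT library was above every WT library for 2 genes (MCAM and VCAM1), as for 21.8% of all genes. The groups overlapped for THY1, NT5E, CD44 and NES. Because the genes were chosen on this contrast, nothing is read from these shares. FT_1 lay over 2-fold above both other FT libraries for NT5E and VCAM1 and over 2-fold below them for CD34, NES and VIM, 5 of the 10 genes, against 19.4% of all genes. In bulk RNA, fewer cells of a type and less RNA per cell cannot be told apart, and this holds for each gene that follows.

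**Figure D1:**
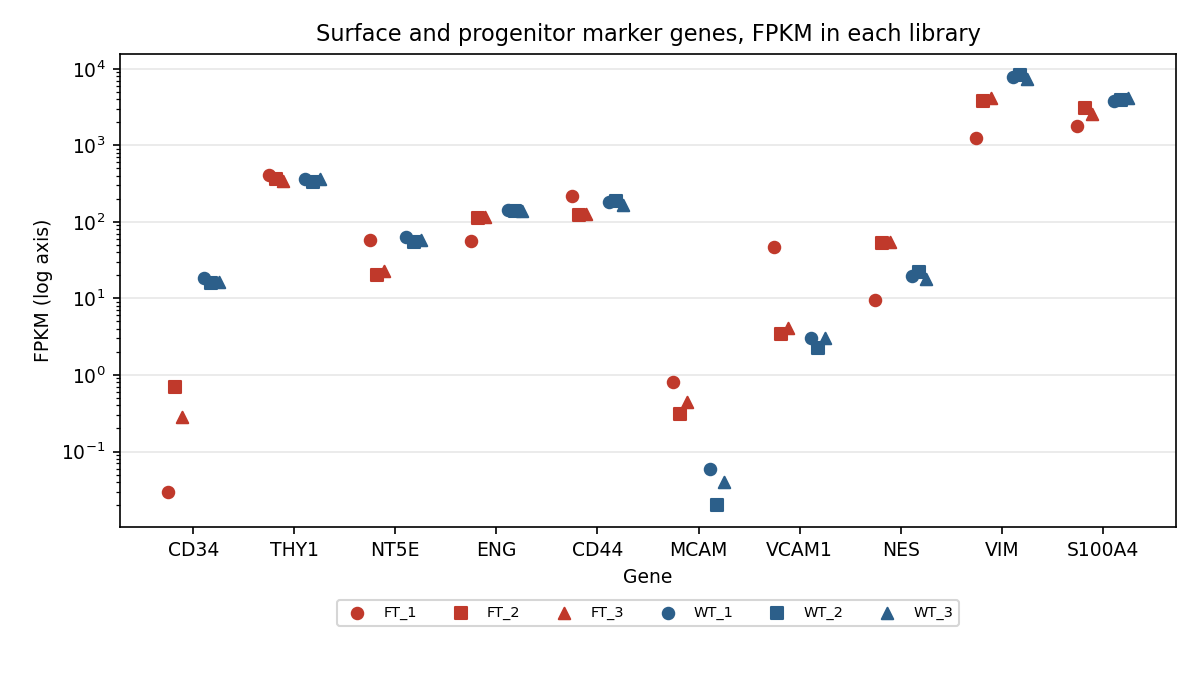
FPKM of the 10 genes in each of the 6 libraries on a log axis, with FT libraries in red and WT libraries in blue and 1 symbol per replicate number. CD34 lies between 0.03 and 0.70 in the FT libraries and between 15.99 and 18.8 in the WT libraries, and the FT_1 circle of VCAM1, at 47.6, lies apart from the other libraries of that gene.

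The order of the levels was the same in all 3 WT libraries: VIM, S100A4, THY1, CD44, ENG, NT5E, NES, CD34, VCAM1 and MCAM from high to low. Over the WT libraries only NES and CD34 overlapped among neighbours in that order, with a lowest NES value of 17.9 and a highest CD34 value of 18.8. In FT_2 and FT_3 the first 5 places were unchanged, NES stood above NT5E, and CD34 and MCAM took the last 2 places. In FT_1 S100A4 stood above VIM, NT5E above ENG, and VCAM1 above NES. In the order of the FT means the overlapping neighbours were VIM and S100A4, NES and NT5E, NT5E and VCAM1, and MCAM and CD34, and NT5E also overlapped with ENG and NES with VCAM1. VIM was the gene with the highest FPKM of the whole table in each WT library, and its rank was 4 (FT_2), 2 (FT_3) and 41 (FT_1). The median coefficient of variation of the 10 genes was 50.6% over the FT libraries and 7.13% over the WT libraries, and it was larger in FT cells for 9 genes, MCAM being the exception.

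CD34 (ENSBTAG00000010562, chromosome 16, 75466075 to 75489259), a sialomucin of progenitor surfaces, had the largest difference of the panel. FPKM values were 0.03 (FT_1), 0.70 (FT_2) and 0.28 (FT_3), and 18.8 (WT_1), 15.99 (WT_2) and 16.5 (WT_3). All FT libraries were near 0 and all WT libraries were within a narrow band, with no overlap. The mean FPKM was 0.337 ± 0.339 (mean ± SD, n = 3) for the FT group against 17.1 ± 1.47 for the WT group, which is 50.7-fold higher in WT. The counts behind the FT values were 6 (FT_1, 95% Poisson interval 2.20 to 13.1), 114 (FT_2, 94.0 to 137) and 53 (FT_3, 39.7 to 69.3), against 4390, 2756 and 3001 in the WT libraries. These intervals cover counting error only. The fitted log2 fold change of FT over WT was -5.51 (SE, standard error of the fit, 0.97), -4.96 (SE 0.26) without FT_1 and -6.61 without FT_2. Among the FT libraries FT_1 had the least CD34, and FT_2 and FT_3 together were 34.9-fold under the WT mean.

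The 3 positive antigens of the stromal panel differed from each other. THY1 (ENSBTAG00000019627, chromosome 15, 29981019 to 29986913), a small glycoprotein held in the membrane by a lipid anchor, had FPKM values of 413 (FT_1), 358 (FT_2) and 342 (FT_3), and 367 (WT_1), 330.0 (WT_2) and 369 (WT_3). The groups overlapped and no library stood far from the rest. THY1 ranked between 154 and 206 among all genes in every library. Its log2 fold change was 0.22 (SE 0.10), and 0.15 (SE 0.07) without FT_1, with a mean FPKM of 371 ± 37.5 for the FT group against 355 ± 21.9 for the WT group. The mean FPKM of FT_2 and FT_3 was 350.1, below that of WT, and the log2 change was 0.071 with library totals and 0.06 with limma, so its direction in FPKM rests on FT_1 and its fitted size on the scaling.

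NT5E (ENSBTAG00000048655, chromosome 9, 63953759 to 64026731) encodes the surface enzyme that turns AMP into adenosine. FPKM values were 57.9 (FT_1), 20.1 (FT_2) and 23.1 (FT_3), and 63.1 (WT_1), 54.1 (WT_2) and 57.2 (WT_3). FT_1 lay within the WT range, and FT_2 and FT_3 were far below it. The log2 fold change was -0.64 (SE 0.40) with all libraries and -1.26 (SE 0.09) without FT_1, so the size of the difference rests on whether FT_1 is included. FT_2 and FT_3 together were 2.70-fold under the WT mean, and FT_1 was level with it.

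ENG (ENSBTAG00000008997, chromosome 11, 98497640 to 98529734) encodes endoglin, a co-receptor for ligands of the BMP and TGF-beta family. FPKM values were 55.5 (FT_1), 111 (FT_2) and 115 (FT_3), and 144 (WT_1), 139 (WT_2) and 139 (WT_3). FT_1 was the lowest, FT_2 and FT_3 were close to each other and a little below the WT libraries, and the groups did not overlap. The fitted log2 change was -0.42 (SE 0.28), and -0.15 (SE 0.06) without FT_1. The WT libraries of ENG had the smallest relative spread of the panel, 2.15%.

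CD44 (ENSBTAG00000011578, chromosome 15, 65649433 to 65736764), the main receptor for hyaluronan, had FPKM values of 219 (FT_1), 122 (FT_2) and 126 (FT_3), and 183 (WT_1), 188 (WT_2) and 166 (WT_3). FT_1 was above all WT libraries and the other FT libraries were below them, so the group means hid a split within FT. The mean FPKM was 156 ± 54.9 for the FT group against 179 ± 11.5 for the WT group. The log2 fold change was -0.05 (SE 0.23), -0.36 (SE 0.07) without FT_1, 0.10 without FT_2 and 0.07 without FT_3, so its sign rests on the libraries used.

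The adhesion molecules MCAM and VCAM1 were both higher in FT cells, from low levels. MCAM (ENSBTAG00000006835, chromosome 15, 29886714 to 29894602) encodes a laminin-binding member of the immunoglobulin family. FPKM values were 0.81 (FT_1), 0.31 (FT_2) and 0.45 (FT_3), and 0.06 (WT_1), 0.02 (WT_2) and 0.04 (WT_3). All FT values were under 1 and yet above all WT values, which rest on 11 counts (WT_1, 95% Poisson interval 5.49 to 19.7), 3 counts (WT_2, 0.619 to 8.77) and 6 counts (WT_3, 2.20 to 13.1). The FT counts were 132, 38 and 63. The fitted log2 change was 3.73 (SE 0.59), and 3.27 (SE 0.62) without FT_1. MCAM ranked lower in the table than the other genes of the panel in every WT library, with a rank of 11505 to 12343 in the FT libraries and 14298 to 14808 in the WT libraries.

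VCAM1 (ENSBTAG00000007773, chromosome 3, 42553488 to 42576599) encodes the vascular cell adhesion molecule that binds integrins with the alpha 4 chain. FPKM values were 47.6 (FT_1), 3.41 (FT_2) and 4.10 (FT_3), and 3 (WT_1), 2.28 (WT_2) and 3.01 (WT_3). FT_1 was 12.7-fold above the mean of FT_2 and FT_3, which were close to the WT libraries although just above them. On the log2 scale the fitted change was 2.87 (SE 1.09) with all libraries and 0.61 (SE 0.15) without FT_1. The mean FPKM was 18.4 ± 25.3 for the FT group against 2.76 ± 0.419 for the WT group, with an FT spread larger than its mean.

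Of the genes for proteins inside the cell, VIM and S100A4 were lower in all FT libraries and NES was not. VIM (ENSBTAG00000018463, chromosome 13, 31653816 to 31661745) had FPKM values of 1244 (FT_1), 3850.2 (FT_2) and 4171 (FT_3), and 7891 (WT_1), 8178 (WT_2) and 7312 (WT_3). All FT libraries were below all WT libraries, and FT_1 was the lowest by far. The mean was 3088 ± 1605 for the FT group against 7793 ± 441 for the WT group, 2.52-fold higher in WT. The log2 fold change was -1.17 (SE 0.46), and -0.79 (SE 0.07) without FT_1.

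S100A4 (ENSBTAG00000019203, chromosome 3, 16824126 to 16826559) had FPKM values of 1775 (FT_1), 3039 (FT_2) and 2598 (FT_3), and 3848 (WT_1), 3954 (WT_2) and 4106 (WT_3). The groups did not overlap, FT_1 was again the lowest, and the gene stayed among the 18 with the highest FPKM in every library. The fitted log2 change was -0.52 (SE 0.22), and -0.32 (SE 0.08) without FT_1. The ratio of VIM to S100A4 within a library was 0.701 (FT_1), 1.27 (FT_2) and 1.61 (FT_3), and 2.05 (WT_1), 2.07 (WT_2) and 1.78 (WT_3), so VIM was lower in FT cells also relative to S100A4.

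NES (ENSBTAG00000015794, chromosome 3, 14159893 to 14168905) encodes nestin, an intermediate filament protein that assembles with vimentin. FPKM values were 9.54 (FT_1), 53.5 (FT_2) and 54.9 (FT_3), and 19.4 (WT_1), 22.2 (WT_2) and 17.9 (WT_3). FT_2 and FT_3 were above every WT library and FT_1 was below every one. The log2 fold change was 1.16 (SE 0.62) with all libraries and 1.62 (SE 0.09) without FT_1.

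**Figure D2:**
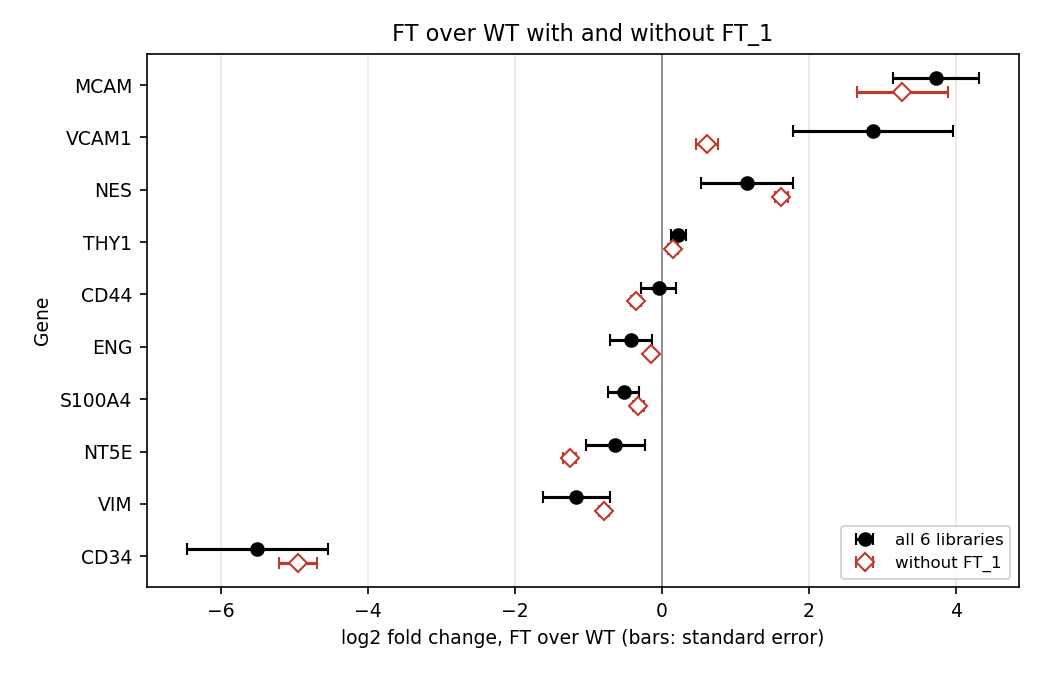
Fitted log2 fold change of FT over WT for each of the 10 genes, with bars of 1 standard error, from all 6 libraries (black circles) and without FT_1 (open red diamonds). CD34 is at -5.51 and -4.96, MCAM at 3.73 and 3.27, and VCAM1 moves from 2.87 to 0.61 when FT_1 is left out.

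The positions of the 10 genes were not used to choose them. MCAM and THY1 lie 86.4 kb apart on chromosome 15, with 4 other genes of the table (C1QTNF5, MFRP, RNF26 and USP2) between them, and the level of MCAM was far below that of THY1 in every library. NES and S100A4 lie 2.66 Mb apart on chromosome 3, with 106 genes of the table between them. No other gene of the table overlapped the span of any of the 10. In the table's GO annotation, which covered all 10, the term cell adhesion was given to CD34, THY1, CD44 and VCAM1 and to 1.66% of the 14463 annotated genes. The term external side of plasma membrane was given to THY1, ENG and MCAM and to 1.20% of annotated genes, and intermediate filament to NES and VIM and to 0.408%. Plasma membrane was given to 4 of the 10 genes (14% of annotated genes), cell surface to 2 (2.21%) and focal adhesion to 0 (0.885%). Nothing is read from these terms, since the panel was chosen as one of surface markers.

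For 9 of the genes, other than MCAM whose mean FPKM was under 0.5, the genes with the most similar profile were sought over the 6 libraries among 10557 genes with a symbol and a mean FPKM of at least 1. The measure was the root mean square distance between profiles of log2(FPKM + 1), each centred on its mean, so that 0 is an identical pattern. The nearest were VWA5A (0.36) and DUT (0.42) for CD34, the largest distances of the panel, and TBC1D9B (0.03) and ATG2B (0.04) for THY1. DUT makes the enzyme that removes dUTP before DNA synthesis, and had FPKM values of 17.4 (FT_1), 15.3 (FT_2) and 14.7 (FT_3) and of 145 (WT_1), 157 (WT_2) and 147 (WT_3). NT5E was nearest to the zinc exporter gene SLC30A1 (0.07) and to the growth arrest gene GADD45A (0.10), which were also near the WT level in FT_1 and lower in FT_2 and FT_3. ENG was nearest to STK38 (0.03) and LYRM1 (0.04), and CD44 to PUS7 (0.03) and RBKS (0.05).

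The pattern of VCAM1, high in FT_1, was shared by the adhesion receptor gene ADGRG1 (0.13) and the growth factor gene NRG1 (0.14). ADGRG1 had FPKM values of 11.7 (FT_1) and at most 0.38 in the other libraries. NES was nearest to the histone deacetylase gene HDAC9 (0.10) and to MXRA8 (0.13), whose FPKM was 58.9 (FT_1), 336 (FT_2) and 332 (FT_3) against 122 (WT_1), 111 (WT_2) and 121 (WT_3). VIM was nearest to the cholinesterase gene BCHE (0.09) and to LGALS1 (0.09), which encodes galectin-1 and had FPKM values of 471 (FT_1), 1449 (FT_2), 1356 (FT_3) and 2570.2 to 2711 in WT cells. S100A4 was nearest to YKT6 (0.05) and TRIT1 (0.05).

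Genes that work with the panel, and markers of other cell types, were taken from 16 lists holding 185 genes apart from the 10. Of these, 164 were in the table and 132 entered the fit. With edgeR's quasi-likelihood test, a gene was called at a Benjamini-Hochberg adjusted p under 0.05 over all genes together with a log2 fold change beyond 1 or -1. Over all genes 1131 were called higher in FT cells (8.39%) and 1019 lower (7.56%). Of the 132 companion genes 15 were called higher and 18 lower. The lists were chosen with earlier results of these data known, so list counts are given as a description. Without FT_1, 1482 of 13765 genes were called higher (10.8%) and 1614 lower (11.7%), and 22 companion genes were called higher and 32 lower. Without WT_1 748 genes were called higher, and without WT_2 728. The median log2 fold change of all genes was 0.03, and -0.02 without FT_1.

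**Figure D3:**
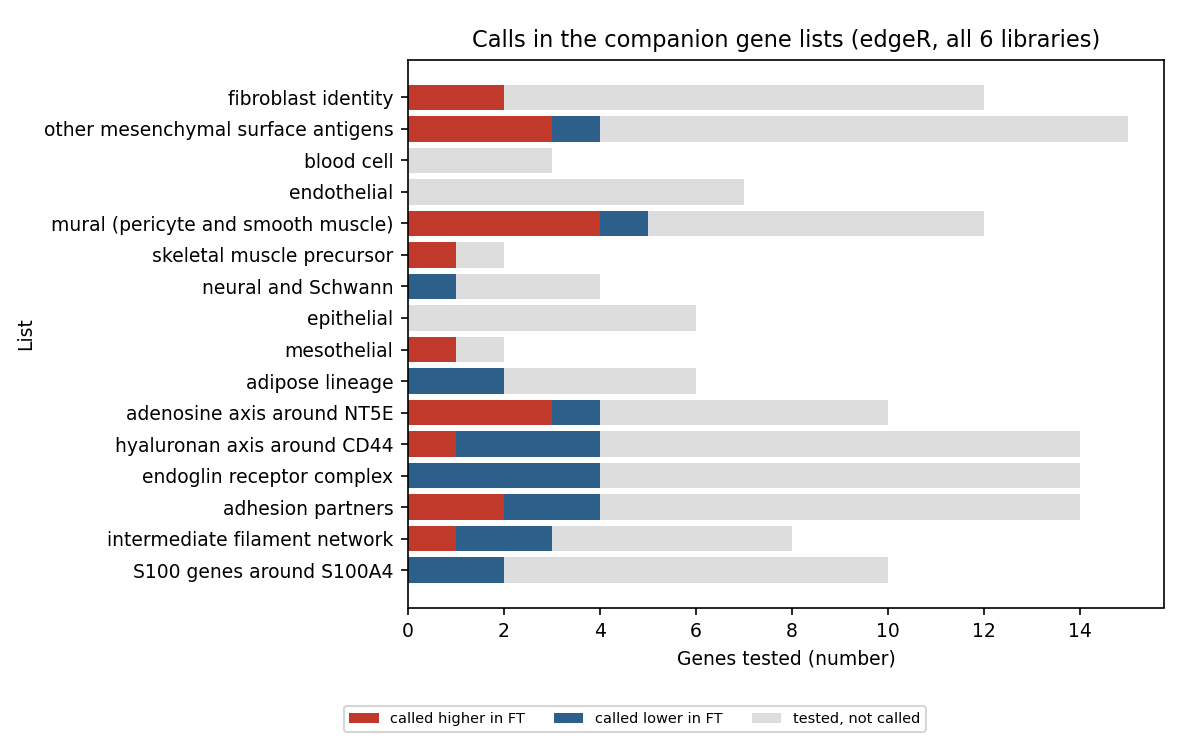
Number of genes in each of the 16 lists that entered the fit, split into those called higher in FT cells (red), called lower (blue) and not called (grey), with all 6 libraries. The mural list has the most genes called higher, 4 of 12, and the endoglin list has the most called lower, 4 of 14.

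Among other surface antigens of mesenchymal cells, 3 of 15 tested genes were called higher in FT cells and 1 lower, with a median log2 fold change of -0.09. Of 18 listed genes 17 were in the table, and without FT_1 2 were called higher and 2 lower (median 0.20). The count called higher was 1 with library totals and with limma. ANPEP (CD13), an aminopeptidase, had FPKM values of 36.0 (FT_1), 70.8 (FT_2) and 73.5 (FT_3) against 18.9 to 23.1 in WT cells. On the log2 scale this was 1.68 (SE 0.29, edgeR adjusted p = 0.00719). PDGFRA rose by 1.06 (SE 0.17, edgeR adjusted p = 0.0053), but its value without FT_1, 0.89, was under the fold threshold, as was that of ALCAM (0.86), the other gene called higher. CSPG4 (NG2), a proteoglycan of pericytes and immature stromal cells, had FPKM values of 2.46 to 3.21 in FT cells against 9.39 to 11.3 in WT cells, a log2 change of -1.63 (SE 0.15, edgeR adjusted p = 0.0011). Without FT_1 the values were 1.95 (ANPEP) and -1.50 (CSPG4).

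In the fibroblast identity list 2 of 12 genes were called higher, FBLN1 and PDGFRA, and the median log2 fold change was 0.06. Without FT_1 3 were called higher and 1 lower, with a median of 0.23. The count called higher was 1 without FT_2, without FT_3 or with any 1 WT library left out, 1 with library totals or a replicate block, 2 with DESeq2 and 0 with limma. The matrix protein gene FBLN1 had FPKM values of 163 (FT_1), 1581 (FT_2) and 1565 (FT_3) and of 160 to 196 in WT cells, so that FT_1 was level with WT. Its log2 fold change was 2.80 (SE 0.81, edgeR adjusted p = 0.0383), and 3.31 without FT_1. Every FT library was below every WT library for COL1A2, COL3A1, TWIST1 and DPT, as for 36.9% of all genes. Every FT library was above for PDGFRA, as for 21.8%, and the groups overlapped for the other genes of the list. DPT, named after its values were seen, had 1.68 (FT_1), 8.59 (FT_2) and 7.04 (FT_3) against 17.0 to 19.3 in WT cells. The log2 fold change of DPT was -1.51, and -1.07 without FT_1, where it was called lower. COL1A1 had a log2 fold change of 0.03 (SE 0.42, edgeR adjusted p = 0.961) with all libraries and 0.39 (SE 0.06, edgeR adjusted p = 0.000326) without FT_1, under the fold threshold. With all libraries edgeR called no gene of this list lower. The count was 1 at an unadjusted p under 0.05, with DESeq2 and with limma. Here and in what follows limma is on log2(FPKM + 1).

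Around NT5E, 3 of 10 tested genes of adenosine production, sensing and removal were called higher and 1 lower, with a median log2 fold change of 1.32. Of 15 listed genes 14 were in the table, and without FT_1 2 were called higher and 1 lower (median 0.32). The count called higher was 5 with DESeq2 and 1 with limma, and the count called lower was 2 without FT_2, FT_3 or WT_3 and with limma, library totals, a replicate block or no fold threshold. The adenosine receptor gene ADORA2B had FPKM values of 7.76 (FT_1), 4.71 (FT_2) and 3.78 (FT_3) against 0.93 to 1.35 in WT cells, a log2 change of 2.47 (SE 0.33, edgeR adjusted p = 0.00294). The nucleoside transporter gene SLC29A2 rose by 1.58 (SE 0.27, edgeR adjusted p = 0.00678), and SLC29A1 by 1.14 (edgeR adjusted p = 0.0408) with 0.65 without FT_1. PNP, whose enzyme breaks down inosine, was the most abundant gene of the list in WT cells at 518 to 545 FPKM and had 145 (FT_1), 79.8 (FT_2) and 82.0 (FT_3). Its log2 fold change was -2.23 (SE 0.25, edgeR adjusted p = 0.00174). ADK had 18.3 to 28.5 FPKM in FT cells against 53.7 to 56.6 in WT cells. Its change of -0.99 (edgeR adjusted p = 0.00893), and -0.81 without FT_1, was short of the fold threshold. ENTPD2 (1.51), ENPP1 (2.67) and ALPL (2.40) were not called, with 1.13 to 1.43 FPKM in FT_1 and at most 0.39 in the other libraries. ADK and these genes were named after their values were seen. Leaving out FT_1 gave 2.14 (ADORA2B), 1.28 (SLC29A2) and -2.56 (PNP).

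Around CD44, 1 of 14 tested genes of hyaluronan synthesis, binding and breakdown was called higher and 3 lower, with a median of -0.19. All 15 listed genes were in the table. CEMIP, which encodes a protein that cuts hyaluronan, had FPKM values of 279 to 489 in FT cells against 119 to 169 in WT cells (log2 change 1.51, SE 0.25, edgeR adjusted p = 0.00606). HMMR, a hyaluronan-binding protein that also acts at the mitotic spindle, had 7.91 to 8.67 in FT cells against 32.0 to 41.9 in WT cells (-1.97, SE 0.12, edgeR adjusted p = 0.000523). TNFAIP6, which links proteins to hyaluronan, had a log2 fold change of -1.67 (SE 0.38, edgeR adjusted p = 0.0178). HAPLN3, named after its values were seen, was the remaining gene called lower. Without FT_1 2 of 15 genes were called higher and 4 lower, and the median was -0.50. The count called lower was 1 with any 1 WT library left out. Log2 changes without FT_1 were 1.24 (CEMIP), -1.98 (HMMR) and -1.34 (TNFAIP6).

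Around ENG, 4 of 14 tested genes were called lower and 0 higher by edgeR, with a median of -0.27. Of 16 listed genes 15 were in the table, and without FT_1 5 were called lower (median -0.43). The count of genes called higher was also 0 at an unadjusted p under 0.05, with DESeq2 and with limma. The genes called lower were the feedback inhibitor SMAD6 and the transcription factor genes ID1, ID2 and ID3, which are known targets of BMP signals. ID1 had FPKM values of 2.49 (FT_1), 1.45 (FT_2) and 0.98 (FT_3) against 70.0 (WT_1), 79.4 (WT_2) and 54.7 (WT_3), a log2 fold change of -5.21 (SE 0.39, edgeR adjusted p = 0.000779). ID3 had 73.3, 30.4 and 29.0 in the FT libraries and 148 to 178 in WT cells (-1.69, SE 0.38, edgeR adjusted p = 0.016). Of the receptor genes, TGFBR3 was at -0.98 with all libraries (edgeR adjusted p = 0.00816), short of the fold threshold, and at -0.82 without FT_1. It had 45.5 to 66.7 FPKM in FT cells against 113 to 136 in WT cells. ACVR1 went the other way, at 0.32 (edgeR adjusted p = 0.0256) and 0.26 without FT_1. TGFBR1 was at 0.23, TGFBR2 at -0.015, BMPR2 at -0.225 and ACVRL1 at -0.26, each at an edgeR adjusted p over 0.05. Without FT_1 these were at -0.15, -0.40, -0.06 and 0.25. The receptor genes were named after their values were seen. limma called 6 genes of the list lower, and with no fold threshold edgeR called 5 lower and 1 higher. Without FT_1 the log2 changes were -5.64 (ID1) and -2.25 (ID3).

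Among the partners of the adhesion molecules, 2 of 14 tested genes were called higher and 2 lower, with a median of 0.03. Of 17 listed genes 16 were in the table, and without FT_1 2 were called higher and 3 lower (median -0.03). The count called higher was 1 with any 1 WT library left out, and the count called lower was 1 without WT_2 or WT_3, and each was 1 with limma. The alpha 4 integrin gene ITGA4, whose product binds VCAM1, had FPKM values of 0.01 (FT_1), 0.05 (FT_2) and 0.10 (FT_3) and of 1.26 to 1.94 in WT cells (log2 change -4.70, SE 0.68, edgeR adjusted p = 0.00373). Its partner chain ITGB7 had a log2 fold change of -1.18 (SE 0.24, edgeR adjusted p = 0.0127). PODXL, a sialomucin related to CD34, had 2.11 (FT_1), 0.10 (FT_2) and 0.31 (FT_3) and at most 0.02 in WT cells (6.43, SE 1.67, edgeR adjusted p = 0.027, and 4.44 without FT_1). BCAM, a laminin receptor, had 10.5 to 20.1 in FT cells against 0.93 to 1.18 in WT cells (3.84, SE 0.30, edgeR adjusted p = 0.000827). Leaving out FT_1 gave -4.23 (ITGA4), -1.14 (ITGB7) and 3.49 (BCAM).

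In the intermediate filament network around VIM and NES, 1 of 8 tested genes was called higher and 2 lower, with a median of -0.33, and the same numbers were called without FT_1 (median -0.52). All 12 listed genes were in the table. Desmin (DES), the filament of muscle cells, had FPKM values of 5.74 (FT_1), 4.01 (FT_2) and 3.17 (FT_3) and at most 0.07 in WT cells (log2 change 7.44, SE 1.17, edgeR adjusted p = 0.00488). The neurofilament gene NEFH had 0.09 to 0.41 in FT cells against 5.80 to 8.29 in WT cells (-4.33, SE 0.58, edgeR adjusted p = 0.00299), and the lamin gene LMNB1 fell by 1.80 (SE 0.18, edgeR adjusted p = 0.00137). Around S100A4, 2 of 10 tested genes were called lower and 0 higher, with a median of -0.47. Of 11 listed genes 10 were in the table, and without FT_1 4 were called lower and 1 higher (median -0.73). In both lists limma called 3 genes lower. S100A1 had a log2 fold change of -2.99 (SE 0.35, edgeR adjusted p = 0.00209), and S100A10, the annexin partner, had 368, 629 and 632 FPKM in the FT libraries and 1449 to 1604 in WT cells (-1.31, SE 0.23, edgeR adjusted p = 0.00777). Leaving out FT_1 gave 7.12 (DES), -3.90 (NEFH), -1.94 (LMNB1), -2.70 (S100A1) and -1.08 (S100A10).

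Several genes of the panel also mark other cell types, and the markers of those cells were looked at as whole lists. Endothelium carries CD34, ENG, MCAM and VCAM1. Its list of 17 genes had 15 in the table and a summed FPKM of 7.85 (FT_1), 3.47 (FT_2), 3.68 (FT_3), 6.42 (WT_1), 5.57 (WT_2) and 5.53 (WT_3). FLT1 was its most abundant gene in every library but FT_1, where it was ERG (6.03). The defining markers were at or near 0 in both groups, with PECAM1 at 0.09 to 0.76 FPKM, CDH5 at 0 to 0.10 and KDR at 0 in the FT libraries and 0.01 to 0.03 in the WT libraries. By edgeR 0 of the 7 tested genes was called in either direction, and this was also 0 at an unadjusted p under 0.05, with DESeq2 and with limma, although 1 gene was called higher without WT_3. The list's median log2 fold change was -0.13, and without FT_1 it was -0.35, with PECAM1 and ERG called lower. ERG, FLT1 and KDR were named after their values were seen.

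Blood cells, which carry CD34, CD44 and VCAM1's ligands, had 5 of 11 listed genes in the table and a summed FPKM of 3.49 (FT_1), 3.11 (FT_2), 2.24 (FT_3), 4.99 (WT_1), 4.02 (WT_2) and 5.33 (WT_3). CD14 (2.01 to 5.09) was the most abundant in every library, and ITGAM, SPI1, CSF1R and TAL1 were under 1 everywhere. None of the 3 tested genes was called by edgeR, at an unadjusted p under 0.05, by DESeq2 or by limma, and their median log2 fold change was -0.55. Without FT_1 it was -0.57, again with 0 called. PTPRC was not analysed here.

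The mural list, for the pericytes and smooth muscle cells that carry MCAM and NES, had 4 of 12 genes called higher (DES, MYOCD, CNN1 and ACTA2) and 1 lower (CSPG4), with a median log2 fold change of 0.64. Without FT_1 6 were called higher and 3 lower, with a median of 1. With DESeq2 5 were called higher and 3 lower. Its summed FPKM was 2306 (FT_1), 3596 (FT_2), 3476 (FT_3), 1160 (WT_1), 1132 (WT_2) and 1264 (WT_3), and ACTA2 or TAGLN was the most abundant gene. Cultured fibroblasts also make both. ACTA2, named after its values were seen, had 1372, 2421 and 2378 FPKM in the FT libraries and 503 to 627 in WT cells. MYOCD, the smooth muscle coactivator, had 0.52 to 0.64 in FT cells against at most 0.02 in WT cells (log2 change 6.57, edgeR adjusted p = 0.00451). It was 6.47 without FT_1. RGS5, a defining pericyte marker, had 0.03 (FT_1), 8.49 (FT_2) and 7.88 (FT_3) and 4.21 to 5.15 in WT cells, so that it was nearly missing from FT_1 alone. The pericyte genes KCNJ8 and ABCC9, named after their values were seen, ran otherwise. KCNJ8 had 0.09 (FT_1) and 0 in FT_2 and FT_3 against 0.41 to 0.57 in WT cells, and ABCC9 had 0.31 (FT_1), 0.06 (FT_2) and 0.05 (FT_3) against 0.39 to 0.77, and edgeR called both lower without FT_1. The part of mural cells in the values of MCAM and NES was not tested.

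The epithelial list, which does not overlap with the panel, separated FT_1 from the rest. Its summed FPKM was 447 (FT_1), 12.8 (FT_2), 11.9 (FT_3), 10.1 (WT_1), 7.85 (WT_2) and 13.9 (WT_3). KRT5 was the most abundant gene in FT_1 and the cadherin gene CDH1 in every other library. KRT14 had 128 FPKM in FT_1, 1.76 (FT_2) and 1.11 (FT_3), KRT8 had 84.1, 0.95 and 0.61, and all were at 0 in the WT libraries. EPCAM, a defining marker, was at 0.57 (FT_1) and at 0 in the other 5 libraries, and GRHL2 at 0.03 and 0. With all libraries 0 of the 6 tested genes was called by edgeR, DESeq2 or limma on log2(FPKM + 1), and 4 keratin genes were higher at an unadjusted p under 0.05. With limma on log2(FPKM + 0.1) 2 genes were called higher. The count was 4, the keratin genes KRT5, KRT14, KRT8 and KRT18, without FT_1, and 4 genes were called higher with a replicate block. The 4 keratin genes were at 0 in all WT libraries, so no fold change is given for them. With each set to a bound, at least the fold over 3 counts in the WT group, the median log2 fold change of the list was 10.64 with all libraries and 5.88 without FT_1. All 9 listed genes were in the table, and the keratins and GRHL2 were named after their values were seen.

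The mesothelial list, with 5 of 6 genes in the table, was also highest in FT_1. Its summed FPKM was 215 (FT_1), 45.1 (FT_2), 46.3 (FT_3) and 2.35 to 3.51 in WT cells, of which MSLN (mesothelin) was the most abundant gene in every library. MSLN had 199 FPKM in FT_1, 44.9 (FT_2) and 46.2 (FT_3) against 2.08 to 3.18 in WT cells (log2 change 5.26, SE 0.74, edgeR adjusted p = 0.00346, and 4.21 without FT_1). It was the 1 gene called of 2 tested, and the mesothelial transcription factor gene WT1 was at 0 in FT cells and at 0.03 to 0.05 in WT cells. Its median log2 fold change was 3.10, and 1.57 without FT_1, where MSLN was again the 1 gene called. FT_1 had the most epithelial and mesothelial transcripts. It also had the most THY1, CD44, MCAM and VCAM1 and the least CD34, ENG, NES, VIM and S100A4. The part of those transcripts in these values was not tested.

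**Figure D4:**
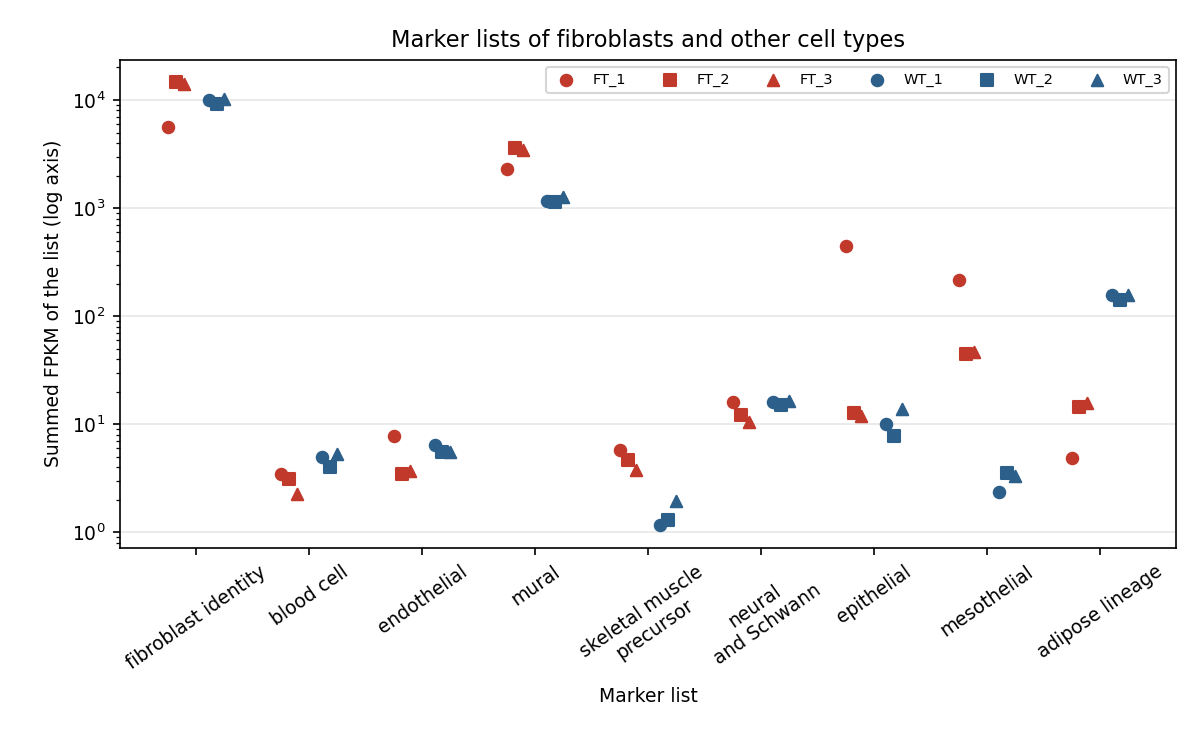
Summed FPKM of the marker lists of fibroblasts and of 8 other cell types in each library on a log axis, with FT libraries in red and WT libraries in blue. FT_1 is at 447 for the epithelial list, where the other libraries are at 7.85 to 13.9, and the adipose list is at 4.92 to 15.7 in FT cells against 140 to 156 in WT cells.

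The remaining lists were of adipose, muscle and neural cells. CD34 marks the stromal progenitors of fat, and the adipose list had 2 of 6 tested genes called lower, FABP4 and CD36, with a median log2 fold change of -1.42. Of 8 listed genes 7 were in the table, and without FT_1 4 were called lower (median -2.49). Only 1 was called lower without FT_2, or with any 1 WT library left out. Its summed FPKM was 4.92 (FT_1), 14.4 (FT_2), 15.7 (FT_3), 156 (WT_1), 140 (WT_2) and 156 (WT_3). The fatty acid binding protein gene FABP4, most abundant in WT cells, had 0.08, 4.67 and 5.95 FPKM in the FT libraries and 140, 128 and 143 in the WT libraries (-5.10, SE 1.17, edgeR adjusted p = 0.0176). CD36, a fatty acid transporter, had 0 to 0.05 in FT cells against 1.96 to 4.11 in WT cells (-6.50, edgeR adjusted p = 0.00456). Leaving out FT_1 gave -4.51 (FABP4) and -5.87 (CD36). The other tested genes of the list ran in both directions and were not called with all libraries. ZNF423 had 0 to 0.02 FPKM in FT cells against 0.07 to 0.10 in WT cells (-2.43), and was called lower without FT_1 (-3.21). PLIN1 had 1.31 to 1.49 FPKM in FT cells against 1.23 to 1.27 in WT cells. LPL had 1.47 (FT_1), 8.04 (FT_2) and 7.81 (FT_3) against 5.99 to 8.42 in WT cells. PPARG had 2.02 (FT_1), 0.30 (FT_2) and 0.37 (FT_3) against 1.11 to 1.61 in WT cells, and was called lower without FT_1 (-1.78). The WT sums were thus mostly FABP4, and ADIPOQ, a marker of mature fat cells, was under 1 FPKM everywhere. The part of such cells in the CD34 values was not tested.

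In the skeletal muscle list, with 3 of 6 genes in the table and 2 tested, DES was called higher, and MYF5 had 0.03 to 0.61 FPKM in FT cells and 1.06 to 1.93 in WT cells without being called with all libraries. The median log2 fold change was 2.90, and 3.01 without FT_1, where MYF5 was called lower. The list's sum was 5.80 (FT_1), 4.63 (FT_2) and 3.78 (FT_3) and 1.16 to 1.93 in WT cells, with DES the most abundant gene in FT cells and MYF5 in WT cells. In the neural and Schwann list, for other cells that carry NES, 5 of 8 genes were in the table and 1 of 4 tested was called lower, with and without FT_1 (median 0.13 and -0.29). The count was 0 without FT_3, with any 1 WT library left out, with no filter or with a replicate block. This was FABP7, with 0.07 to 0.70 FPKM in FT cells and 2.10 to 2.69 in WT cells (log2 change -2.42, SE 0.75, edgeR adjusted p = 0.0464). It was -1.93 without FT_1. The sum of that list was 16.1, 12.1 and 10.4 in the FT libraries and 15.1 to 16.4 in the WT libraries, mostly S100B or PAX6. PAX7 and SOX10, the defining markers of muscle precursors and Schwann cells, were not analysed here. With all libraries edgeR called 0 genes of the adipose, neural and S100 lists higher and 0 of the mesothelial, skeletal muscle and epithelial lists lower, and these counts were also 0 at an unadjusted p under 0.05, with DESeq2 and with limma.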

How the data were processed

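RNA from 3 FT and 3 WT fetuses was sequenced as poly(A) libraries. The submitters' processing notes name HISAT2 2.0, StringTie 1.3.0 and Bowtie 0.12.2. The same notes list a mouse build, which cannot be that of a table with chromosomes 1 to 29. The cattle genome build and the counting of reads shared between genes or strands are not given in the sources used here, and positions are those of the table. The authors deposited, for each of 17663 genes, a raw count and an FPKM value per library, FPKM being fragments scaled by length and library total. The annotation held a symbol for 14882 genes.

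Counts were fitted with edgeR 4.0.16 in R 4.3.3 (TMM scaling, filterByExpr, quasi-likelihood test) over 13482 genes, without covariates. Standard errors are the fold change over the root of the test's F. The adjusted p replaces the unadjusted one of the study's methods, which was an alternative. Other alternatives were median-ratio scaling, library totals, DESeq2 1.42.0, limma 3.58.1 on log2(FPKM + 1) and log2(FPKM + 0.1) where the mean FPKM was 0.5 or more, no filter, a replicate block, no fold threshold and leaving out each library. The fits were tested on simulated counts with the same variability setting for every gene and no outlying library. That test does not cover a library such as FT_1. Libraries were compared by a chi-square over genes, and none was a copy of another.

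The 10 genes, the lists and the fit were chosen with earlier results of these data known, from edgeR as well as limma. The p-values measure spread between the libraries of these fetuses, and those without FT_1 leave out the spread that FT_1 brings. Named genes are these 10, in each list the 2 called genes with the largest positive and the 2 with the largest negative fold change, the markers PECAM1, CDH5, PTPRC, EPCAM, RGS5, PAX7, SOX10, MSLN, PDGFRA and COL1A1, and the 2 genes most like each of the 10 (mean FPKM at least 0.5). Other genes, such as the keratins, DCN and markers at 0, were named after their values were seen. The lists are those of the plan, except that 1 gene that did not enter the fit was taken out afterwards.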

Additional observations from a re-analysis of the deposited data

How the results depend on the processing

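The log2 fold changes of the 10 genes kept their sign under every alternative, except that CD44 was positive without FT_2 or FT_3. Library totals without TMM gave 879 genes higher and 1358 lower (39.3% higher, against 52.6%), with a median of all genes of -0.12 against 0.03, and a THY1 log2 fold change of 0.071. limma on log2(FPKM + 1) gave 423 higher and 993 lower (29.9% higher, median -0.12), 8 companion genes higher, -3.79 for CD34, 0.06 for THY1, 1.46 for VCAM1, 0.62 for NES, -0.25 for CD44 and -0.66 for ENG. With a pseudocount of 0.1 it gave 671 higher and 1326 lower (33.6% higher, median -0.15) and 0.06 for THY1. MCAM had no value in either limma fit, as its mean FPKM was too low. With no fold threshold 2714 genes were higher and 2547 lower, and 23 companion genes higher.

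Leaving out each library gave 728 to 1482 genes higher, 713 to 1614 lower, 11 to 22 companion genes higher and 13 to 32 lower. CD34 ranged from -6.61 to -4.96, NT5E from -1.26 to -0.38 and VCAM1 from 0.61 to 3.36. The cause of these shifts was not tested.

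Replicate numbers name different fetuses, so they were not used to pair the samples in the main fit. The deviations of any FT and WT library from their group means had correlations of -0.02 to 0.023. Such correlations, from 3 libraries a group, cannot exclude a weak effect shared by number. The replicate block gave 846 genes higher and 804 lower, 16 companion genes higher and 18 lower, and 1.73 for VCAM1. With 3 libraries a group an exact permutation test cannot give a p under 0.1. Low counts limit CD34 in FT_1 and MCAM in WT cells.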
